A study of Saccharomyces cerevisiae with 7 samples.

Results

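The mRNAs described here are those of budding yeast for which the deposited transcript annotation lists no 5' untranslated region. They were chosen as the genes whose systematic name begins with Y and that have a transcript row and exon rows but no 5' UTR row. The rule found 321 of 3000 mRNAs (10.7%). Of these, 208 had a 3' UTR row and 113 had neither UTR (3.77% of all mRNAs). The other 2679 mRNAs had a 5' UTR row. The annotation belongs to a study of RNA secondary structure in Saccharomyces cerevisiae, in which RNA was cleaved by nucleases and the cleavage ends were sequenced. RNase V1, which cuts paired bases, was used on 4 samples, and nuclease S1, named RNase S1 in some labels, which cuts unpaired bases, was used on 3. Every sample came from cells in log phase at 23 °C, and its RNA was refolded with 10 mM magnesium and 100 mM KCl and digested for 15 min. The sample titles say total RNA while the source labels say polyA RNA, and the labels give neither strain nor mating type. No value per sample was analysed here, so the nucleases were not compared, no sequencing depth can be given, and everything below describes genes.

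In yeast, the small ribosomal subunit usually binds near the cap of an mRNA and scans the 5' UTR for a start codon. Translation starts most readily at an AUG preceded by an adenine at the base numbered -3, counted back from the A of the AUG. Yeast genes stand close together, so the promoter and the 5' UTR of a gene share a short stretch of DNA with the end or the promoter of its upstream neighbour. All 321 transcripts began at the first base of their start codon. An absent 5' UTR row may stand for a length of 0 nt or for an end that was not determined, and the annotation alone does not tell these apart.

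The start codons of 5 mRNAs without a 5' UTR and of their close relatives are shown first, because duplicated genes differed in what the annotation lists for them. Sequences are from the RefSeq R64 genome, found by gene name at R64's own start codon and written 5' to 3' on the coding strand. Capitals mark the base at -3 and the ATG. RPL12A and RPL12B, duplicate genes for a protein of the large ribosomal subunit, both lacked a 5' UTR. RPL21A, RPL36A and HYP2 lacked one, while RPL21B, RPL36B and ANB1 had 5' UTRs of 27, 28 and 30 nt. The RPL21 and RPL36 pairs encode large-subunit proteins, and HYP2 and ANB1 encode the translation factor eIF5A.
RPL12A: ggatatacaAaaATGcctccaaag
RPL12B: tcaatagtcAatATGcctccaaag
RPL21A: taactagcaAcaATGggtaaatcg
RPL21B: cactaaacaAaaATGggtaaatcg
RPL36A: acacaataaGaaATGaccgttaag
RPL36B: ggataatacAaaATGgctgtcaag
HYP2: ctcatatatAcaATGtctgacgaa
ANB1: acacactaaAacATGtctgacgaa
In R64, these windows are chr5:53207-53230 (minus strand), chr4:1301604-1301627 (plus), chr2:606258-606281 (plus), chr16:406624-406647 (plus), chr13:651133-651156 (plus), chr16:76228-76251 (minus), chr5:85664-85687 (plus) and chr10:525370-525393 (minus), in the order of the lines. RPL36A, without a 5' UTR, carries G at -3, and the other starts shown carry A.

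Other mRNAs without a 5' UTR had a start codon with C or T at -3 and a further in-frame ATG a few codons on. The lines below show 4 of them, chosen after their values were seen, with the base at -3 and both ATGs in capitals. ALT2 encodes a relative of alanine transaminase, VPS70 a putative zinc metalloprotease and TNA1 the nicotinic acid transporter, while YMR321C is uncharacterised.
YMR321C: TagATGATGgac
ALT2: CacATGacaATGaca
VPS70: TatATGagaATGata
TNA1: TagATGagcaacaaatttacaATGgag
Their R64 positions are chr13:917888-917899 (minus strand), chr4:679753-679767 (minus), chr10:658678-658692 (minus) and chr7:1012482-1012508 (plus), in the same order. The next ATG lay 1 codon after the start in YMR321C, 2 in ALT2, 2 in VPS70 and 6 in TNA1, and in each of them it had A at its own -3. In YMR321C this A is necessarily that of the first ATG. Among others of this kind, the base was A in YBL008W-A, AKR2 and GFD2, G in ECM7, and T in UNG1 and TOK1.

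Genes without a 5' UTR stood closer to the gene upstream of them. The gap from the start codon to the coding region of the upstream neighbour had a median of 315.5 nt over 174 mRNAs without a 5' UTR, against 472 nt over 1434 mRNAs with one. The 95% intervals of these medians, 273 to 368 nt and 453 to 493 nt, did not overlap. Gaps were measured in the annotation, between genes that are next to each other in R64 and both listed. All intervals here cover counting error over genes only, and no test was made, because genes are not replicates. The nearness was clearest where a 3' UTR was listed. The median gap was 275 nt (250 to 344) for 120 mRNAs with a 3' UTR alone and 432 nt (319 to 610) for 54 with neither UTR. Over all upstream neighbours in R64, the medians were 297.5 nt (262 to 341) with a 3' UTR alone and 401 nt (335 to 482) with neither UTR. With a 5' UTR, that median was 455.5 nt (444 to 470). Gaps under 150 nt preceded 16 of 174 mRNAs without a 5' UTR (9.20%) and 8 of 1434 with one (0.558%), against 1.49% of all mRNAs with a measured gap.

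The upstream neighbour of a gene is tandem when it is on the same strand, so that its 3' end faces the start codon, and divergent when it is on the other strand and promoters face each other. With a tandem neighbour, the median gap was 276 nt (240 to 328, n = 103) without a 5' UTR and 415 nt (390 to 437, n = 647) with one. With a divergent neighbour, it was 446 nt (309 to 566, n = 71) without a 5' UTR and 549 nt (505 to 590, n = 787) with one, and these intervals overlapped. Among mRNAs without a 5' UTR, the tandem medians were 251 nt (226 to 295) with a 3' UTR and 449 nt (300 to 741) with neither UTR. The divergent medians of these classes were 460 nt (263 to 577) and 429.5 nt (263 to 687), so the classes differed with tandem neighbours only. Divergent neighbours were found for 141 of 321 mRNAs without a 5' UTR (43.9%, 95% Wilson interval 38.6 to 49.4%) and for 1432 of 2678 with one (53.5%, 51.6 to 55.4%), against 52.5% of all. With the nearest listed gene taken as neighbour, the shares were closer, 47.6% (42.2 to 53.1%) without a 5' UTR and 52.0% with one. Among mRNAs without a 5' UTR, the share was 39.4% (33.0 to 46.2%) where a 3' UTR was listed and 52.2% (43.1 to 61.2%) where neither UTR was, with overlapping intervals. On the downstream side the median gap was 266 nt (237 to 294, n = 155) without a 5' UTR and 308 nt (295 to 315, n = 1421) with one. There it was 281.5 nt (238 to 314) with a 3' UTR alone and 242 nt (163 to 290) with neither UTR.

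Measured in R64 for all matched genes, the share of mRNAs without a 5' UTR declined with the gap. It was 48.2% where the gap was under 100 nt (27 of 56, interval 35.7 to 61.0%) and 31.4% from 100 to 149 nt. It was 19.4% from 150 to 199 nt, 14.8% from 200 to 249 nt and 9.67% from 250 to 299 nt, and it stood between 7.54 and 9.36% in every longer bin. The decline lay mainly in the class with a 3' UTR. After a tandem gap under 100 nt, 15 of 25 mRNAs had a 3' UTR and no 5' UTR (60.0%), against 14 of 332 after a tandem gap of 500 to 999 nt (4.22%). The share with neither UTR was between 2.79 and 5.36% across the 8 bins with both orientations pooled. For divergent neighbours alone it was 9.68% below 100 nt (3 of 31) and 1.34% from 1000 nt (3 of 224). The bin limits were chosen after the values were seen, and the divergent bin from 100 to 149 nt held 15 genes.

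**Figure D1:**
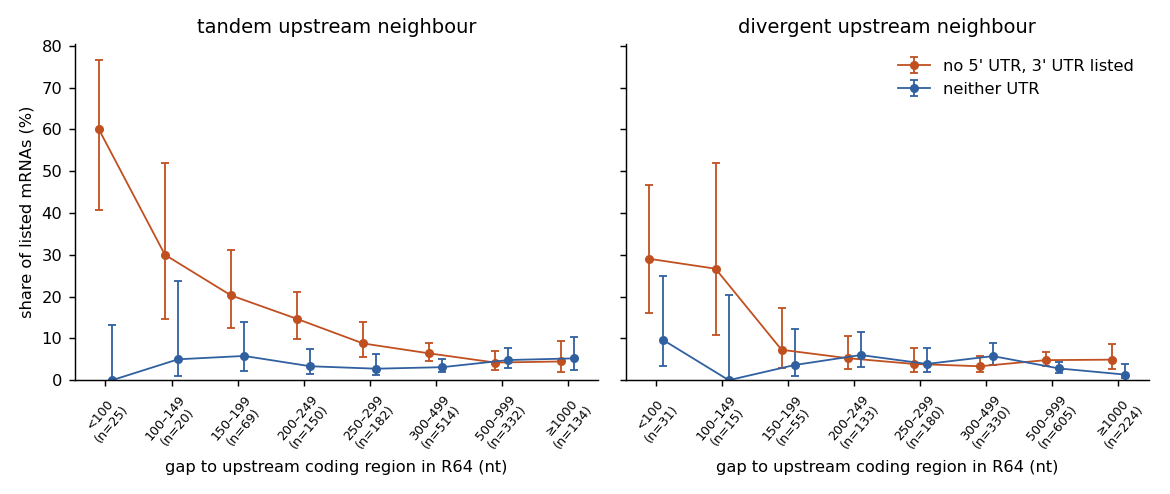
Share of listed mRNAs (%, points with 95% Wilson intervals) without a 5' UTR but with a 3' UTR, and with neither UTR, by the gap to the upstream coding region in R64 (nt), for tandem (left) and divergent (right) neighbours. In tandem genes, the class with a 3' UTR stands at 60.0% below 100 nt and at 4.22% at 500 to 999 nt, while the class with neither UTR is at most 5.80%; in divergent genes it reaches 9.68% below 100 nt.

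In several tandem pairs the transcript of the upstream gene ran up to or over the start codon. It ended within 50 nt of the start codon or past it for 16 of 103 mRNAs without a 5' UTR (15.5%, 9.79 to 23.8%) and for 12 of 647 with one (1.85%, 1.06 to 3.21%), against 3.73% of all tandem pairs. It passed the start codon for 5 and 6 of them (4.85 and 0.927%), against 1.47% of all. The transcript of RCR2 ended 39 nt inside YDR003W-A, that of COX23 28 nt inside TOM71, a mitochondrial import receptor, and that of YNL046W 15 nt inside LAP2, an aminopeptidase. TRM9, a tRNA methyltransferase gene, ended 14 nt inside UBX2, which acts in degradation of endoplasmic reticulum proteins, and MDH1, for mitochondrial malate dehydrogenase, ended 9 nt inside HOT13. These pairs were picked out after their values were seen. The tandem neighbour itself had no 3' UTR row for 9 of 103 mRNAs without a 5' UTR (8.74%, 4.67 to 15.8%) and 17 of 647 with one (2.63%, 1.65 to 4.17%), against 3.47% of all.

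The 5 smallest gaps included 1 overlap of coding regions. EMI1 and GRX2, a glutaredoxin gene, are divergent, overlapped by 47 nt in their coding regions and both lacked a 5' UTR, with 3' UTRs of 34 and 102 nt. MOR1 had neither UTR and began 11 nt from KEI1, whose 5' UTR of 90 nt reached 79 nt into it. YDR003W-A began 27 nt after RCR2 and had a 3' UTR of 194 nt. YER152C began 52 nt after PET122, which had neither UTR. CPA1 encodes a subunit of carbamoyl phosphate synthetase in arginine synthesis and began 56 nt after YOR302W, the upstream reading frame known to encode its arginine attenuator peptide. The annotation gives YOR302W as a transcript of its own, whose 5' UTR was 154 nt and whose 3' UTR was 38 nt long, and this transcript ended 18 nt before CPA1. The pair is therefore counted among the tandem pairs above, although YOR302W is known as an upstream reading frame of CPA1.

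Divergent neighbours of both groups lacked a 5' UTR about equally often. The listed divergent neighbour also lacked one for 6 of 71 mRNAs without a 5' UTR (8.45%) and 65 of 787 with one (8.26%), against 8.28% of all. The 3 such pairs were EMI1 with GRX2, MATALPHA2 with MATALPHA1 at a gap of 263 nt, and EFM1, a protein methyltransferase gene, with ARN1, a siderophore transporter gene, at 811 nt.

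The base at -3 differed between the groups. It was A in 167 of 321 mRNAs without a 5' UTR (52.0%, 46.6 to 57.4%) and in 1818 of 2678 with one (67.9%, 66.1 to 69.6%), against 66.2% of all. It was A in 55.3% of those with a 3' UTR alone and in 46.0% of those with neither UTR. A pyrimidine, C or T, stood at -3 in 26.8% without a 5' UTR (22.2 to 31.9%) and 14.5% with one (13.2 to 15.8%), against 15.8% of all. The neighbouring positions were closer: A stood 4 bases before the start in 42.7% without a 5' UTR and 45.0% with one, and directly before the start in 41.4% without and 46.3% with one, with overlapping intervals.

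**Figure D2:**
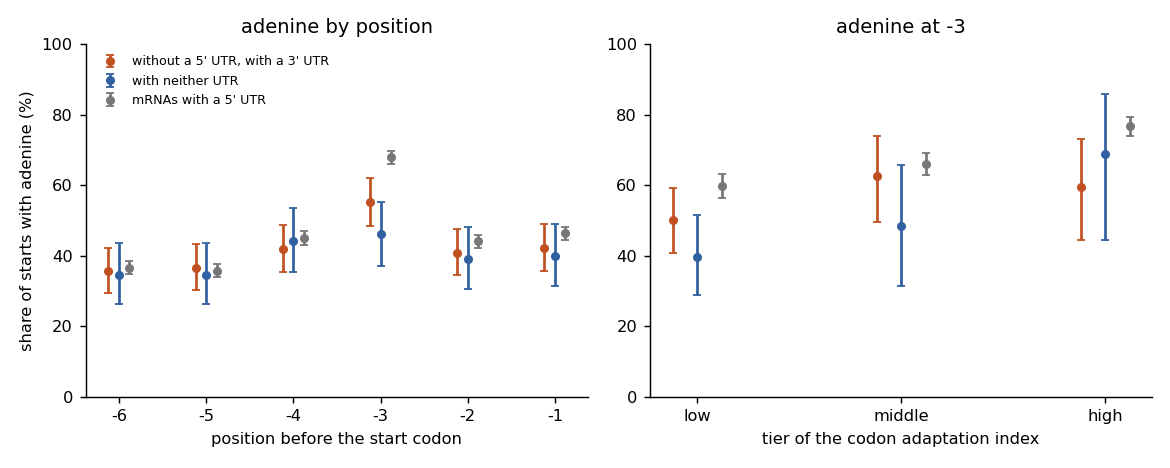
Share of start codons with adenine (%, points with 95% Wilson intervals) at the 6 bases before the start (left) and at -3 by tier of the codon adaptation index (right), for mRNAs without a 5' UTR but with a 3' UTR, with neither UTR, and with a 5' UTR. At -3 the shares are 55.3, 46.0 and 67.9%, and the intervals of both classes without a 5' UTR overlap each other and lie below that of mRNAs with one.

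An in-frame ATG soon after the start was also more frequent. The next one lay within 10 codons in 48 of 321 mRNAs without a 5' UTR (15.0%, 11.5 to 19.3%) and in 228 of 2678 with one (8.51%, 7.52 to 9.63%), against 9.2% of all. Its median distance was 46 codons (40 to 52) without a 5' UTR and 56 codons (53 to 59) with one. The first ATG had C or T at -3, as in the sequences of YMR321C, ALT2, VPS70 and TNA1, in 12 of these 48 mRNAs without a 5' UTR and in 55 of the 228 with one. Among mRNAs with such a near ATG, C or T was thus about as frequent in both groups. The next ATG had A at its own -3 in 22 of the 48 (45.8%) and in 102 of the 228 with a 5' UTR (44.7%). Where the next ATG directly follows the first, as in YMR321C, this A is fixed, being that of the first ATG.

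Codon use was less adapted. The codon adaptation index compares a gene's codons with those of the cytosolic ribosomal protein genes and approaches 1 in strongly translated genes. Its median was 0.211 (0.205 to 0.218) without a 5' UTR and 0.246 (0.242 to 0.250) with one. Leaving out cytosolic ribosomal protein genes, the medians were 0.209 and 0.242. The lowest tier of all mRNAs, below 0.217, held 55.5% of those without a 5' UTR and 30.7% of those with one, and the highest tier, from 0.281, held 18.1 and 35.2%; each tier holds 33.3% of all. Within tiers, A at -3 was found in 46.1% without a 5' UTR and 59.8% with one in the low tier, in 57.6 and 66.1% in the middle tier, and in 62.1 and 76.6% in the high tier. The intervals overlapped in the middle tier alone. A further ATG within 10 codons was found in 18.5% without a 5' UTR and 10.4% with one in the low tier, 15.3 and 9.29% in the middle tier, and 3.45 and 6.16% in the high tier, where it was 2 of 58 genes without a 5' UTR. For this ATG the intervals overlapped in the middle and high tiers. The median gap was 273.5 nt without a 5' UTR and 411.5 nt with one in the low tier, 432 and 450.5 nt in the middle tier, and 342.5 and 569 nt in the high tier. For the gap the intervals overlapped in the middle tier alone.

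**Figure D3:**
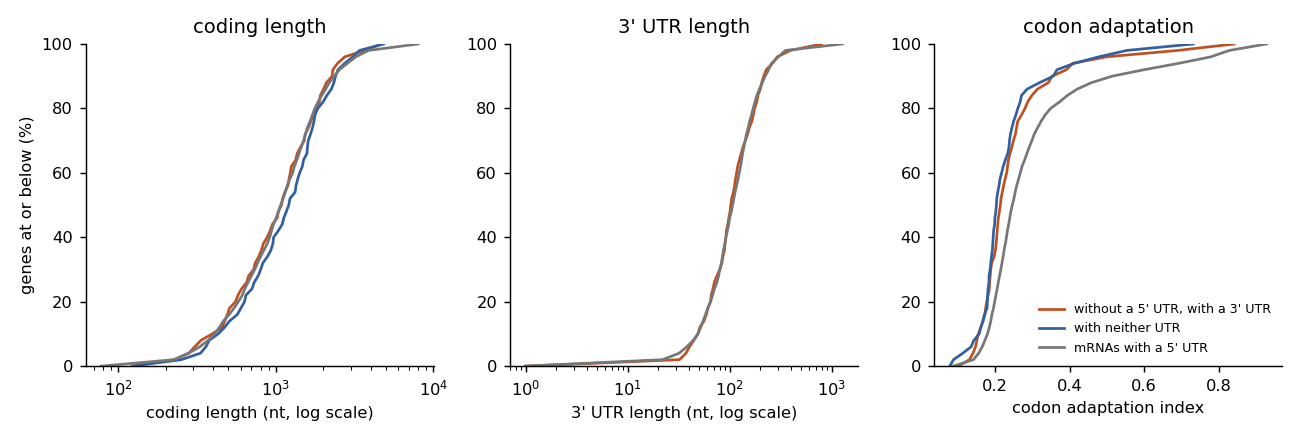
Cumulative share of genes (%) by coding length (nt, log axis), 3' UTR length (nt, log axis) and codon adaptation index, for mRNAs without a 5' UTR but with a 3' UTR, with neither UTR, and with a 5' UTR. The length curves lie close together, and the codon adaptation curves of mRNAs without a 5' UTR lie to the left, with medians of 0.214 and 0.204 against 0.246.

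Highly adapted genes were nevertheless among them. HYP2 had an index of 0.842, RPL12B 0.805, STM1, a ribosome-binding protein gene, 0.766, RPL21A 0.755 and PMP1, for a small regulator of the plasma membrane proton pump, 0.732. RPL12B and RPL21A are themselves among the genes that set the codon weights. With neither UTR, the index was 0.732 in PMP1, 0.598 in the hexose transporter gene HXT7, 0.561 in MET17 and 0.531 in LEU2.

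Among lists of the translation machinery, with rows taken as listed, only cytosolic ribosomal proteins had an interval that excluded the 10.7% of all mRNAs. Of 138 cytosolic ribosomal protein mRNAs, 4 lacked a 5' UTR (2.90%, 1.13 to 7.22%), against 10.7% of all mRNAs: RPL12A, RPL12B, RPL21A and RPL36A, with 3' UTRs of 216, 102, 27 and 99 nt. Of 59 mitochondrial ribosomal protein mRNAs, 9 lacked one (15.3%, 8.24 to 26.5%), 4 of them with neither UTR. Counting 5' UTRs under 10 nt as none, which was not planned for the lists, the share was 23.7% (14.7 to 36.0%), against 13.4% of all mRNAs. That of cytosolic ribosomal proteins was then 5.07% (2.48 to 10.1%). The longest of the 9 were RSM23, MRPL3, MRPL35 and MRP13, of which RSM23 and MRP13 had 3' UTRs of 97 and 50 nt and MRPL3 and MRPL35 had none. Among 38 translation factors, 4 lacked a 5' UTR (10.5%, 4.17 to 24.1%). They were PRT1 and SUI3, subunits of eIF3 and eIF2, TIF6, which acts on the large subunit, and HYP2. Their 3' UTRs were 66, 109, 185 and 219 nt. Of 71 ribosome biogenesis mRNAs, 8 lacked one (11.3%), the longest being UTP4, RRP9, HAS1 and MAK11. UTP4 had neither UTR, and the 3' UTRs of RRP9, HAS1 and MAK11 were 130, 205 and 66 nt. No aminoacyl-tRNA synthetase mRNA of 21 lacked a 5' UTR, where a count of 0 still left an upper bound of 15.5%.

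Metabolic genes ranged from 0 upward. None of 25 glycolysis and fermentation mRNAs lacked a 5' UTR (upper bound 13.3%), and 8 of 77 in amino acid synthesis did (10.4%, 5.36 to 19.2%), 3 of them with neither UTR. The 4 longest were HIS4, LEU4, THR4 and SHM1. HIS4, of histidine synthesis, LEU4, of leucine synthesis, and THR4, threonine synthase, had 3' UTRs of 103, 104 and 88 nt, and SHM1, the mitochondrial serine hydroxymethyltransferase, had none. Lists with 1 to 3 such mRNAs gave ATP2, the beta subunit of ATP synthase, among 39 respiratory mRNAs, ERG13, HMG-CoA synthase, among 25 of ergosterol synthesis, and HXT7 among 5 hexose transporters. They also gave the thiamine transporter gene THI7 among 10 mRNAs of thiamine and vitamin synthesis, and VMA1 and VMA9 among 16 of the vacuolar proton pump. ERG13, HXT7 and THI7 had neither UTR. Each of these lists had an interval that included the 10.7% of all mRNAs. No amino acid permease mRNA of 15 lacked a 5' UTR.

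Among regulatory and structural genes, CLB2, a mitotic cyclin, and FAR1, a cyclin-dependent kinase inhibitor, were 2 of 15 cell cycle mRNAs (13.3%, 3.74 to 37.9%). The transcription factor genes GAT1, HAP1 and PHD1 were 3 of 19 (15.8%, 5.52 to 37.6%). STE20, a kinase of the pheromone pathway, and STE3 were 2 of 15 mating pathway mRNAs (13.3%, 3.74 to 37.9%). All these intervals included the 10.7% of all mRNAs. CLB2, HAP1 and STE3 had neither UTR. SAG1 was 1 of 36 cell wall mRNAs, CCT2 1 of 32 chaperones, RPC19 1 of 30 RNA polymerase subunits and SEC11 1 of 43 of the secretory pathway. The intervals of these lists also included 10.7%. None lacked a 5' UTR among 33 proteasome mRNAs (upper bound 10.4%), 26 of actin, tubulin and septins, and 10 histones. Of 143 reading frames without a symbol, 22 lacked one (15.4%, 10.4 to 22.2%), 5 with neither UTR. The 4 longest were YIL067C, YJR015W, YER152C and YHR033W, with 3' UTRs of 37, 133, 32 and 50 nt.

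**Figure D4:**
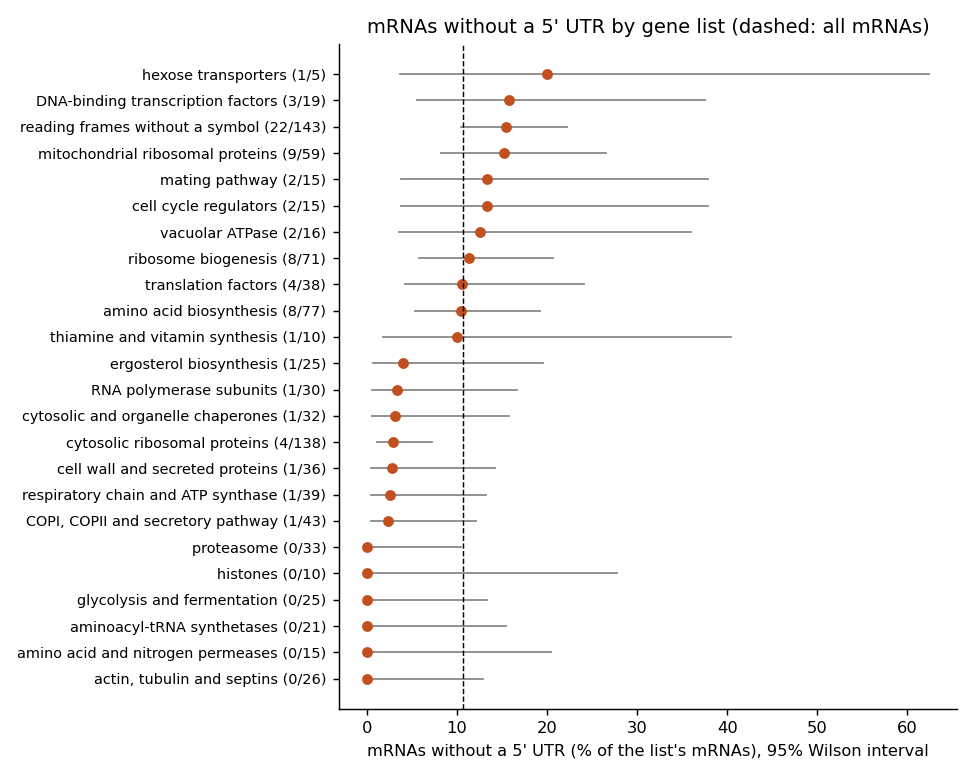
Share of each gene list's mRNAs without a 5' UTR (%, points) with 95% Wilson intervals (lines), with the list's count over its size in its label and the share over all mRNAs, 10.7%, as a dashed line. Cytosolic ribosomal proteins (2.90%) have an interval wholly below that line, as do proteasome subunits (0 of 33), and the other intervals cross it.

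Genes that mark the alpha mating type were looked up after the values had been seen. MATALPHA1 and MATALPHA2, the regulators that set alpha identity, MF(ALPHA)1 and MF(ALPHA)2, which encode the alpha pheromone, and STE3, the receptor for the pheromone of a cells, had neither UTR. SAG1, the alpha agglutinin, had a 3' UTR of 138 nt and no 5' UTR. All 6 thus lacked a 5' UTR and 5 lacked both, against 10.7 and 3.77% of all mRNAs. As background, cells of the other mating type do not express these genes. The labels give no mating type, and the cause of the missing rows was not tested. The proteins of MATALPHA1 and MATALPHA2 are also 100% identical to those of HMLALPHA1 and HMLALPHA2, which the annotation does not list.

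Genes widely used as markers or altered in laboratory strains were looked up in the same way. LEU2, URA3 and MET17, of leucine, uracil and methionine synthesis, and HO, the mating type switching endonuclease, had neither UTR. They made 4 of 9 in this hand-picked set, against 3.77% of all mRNAs. HIS3, LYS2, TRP1, ADE2 and CAN1 had 5' UTRs of 10, 119, 109, 16 and 38 nt. The labels give no strain, and the cause was not tested.

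Few of these mRNAs had a close paralogue. A protein at least 90% identical over at least 80% of both lengths existed in R64 for 10 of 321 mRNAs without a 5' UTR (3.12%, 1.70 to 5.64%) and 161 of 2678 with one (6.01%, 5.17 to 6.98%), against 5.7% of all. Without cytosolic ribosomal protein genes, these shares were 1.89 and 2.24%. At 30% identity the shares were 21.2 and 25.9%, against 25.4% of all. Of the 68 mRNAs with a paralogue at 30%, 52 had the other copy listed. That copy had a 5' UTR in 43, with a median of 69 nt, and none in 9, while 10.7% of all mRNAs lacked one. At 50% identity, the other copy was listed for 36 and lacked a 5' UTR in 9. Pairs such as RPL12A with RPL12B, in which both lacked one, count here from both sides, so the 9 are not separate cases. The closest pairs that differed were PHO11 with PHO12, acid phosphatases that are 99.6% identical, RPL21A with RPL21B, RPL36A with RPL36B, PMP1 with PMP2, and HYP2 with ANB1. The 5' UTRs of these other copies were 45, 27, 28, 30 and 30 nt. The closest pairs in which both lacked one were RPL12A with RPL12B at 100%, the transporters NRT1 and THI7 at 84.4%, the lipid flippases DNF1 and DNF2 at 68.9%, the glutaredoxins GRX3 and GRX4 at 66.7% and the siderophore transporters ARN2 and ARN1 at 55.6%. Reads from near-identical copies can be hard to assign, and no source used here says how the annotation treated them.

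Introns were carried by 11 of 321 mRNAs without a 5' UTR (3.43%, 1.92 to 6.03%) and 188 of 2679 with one (7.02%, 6.11 to 8.05%), against 6.63% of all. The median intron was 83 nt (67 to 388) without a 5' UTR and 282.5 nt (162 to 330) with one. Without cytosolic ribosomal protein genes, the shares were 2.84% without a 5' UTR and 3.97% with one, and the median introns 83 and 102 nt. The longest were those of RPL36A at 463 nt, RPL21A at 388 nt, YPR170W-B at 99 nt, VMA9 at 96 nt and GIM4, of the prefoldin chaperone, at 88 nt. A first coding exon of 20 nt or less was found in 6 mRNAs without a 5' UTR (1.87%) and 80 with one (2.99%), against 2.87% of all. Among mRNAs with an intron, the only ones that can have such an exon, it was found in 6 of 11 without a 5' UTR (54.5%, 28.0 to 78.7%) and 80 of 188 with one (42.6%, 35.7 to 49.7%), so the order of the shares turned and the intervals overlapped. The 6 were ATG44 at 9 nt, VMA9 and RPL21A at 11 nt, GIM5 and RPL36A at 16 nt and GIM4 at 19 nt. Their transcripts as listed therefore began 9 to 19 nt before the first intron.

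Lengths differed by less than their intervals. The coding region had a median of 1110 nt (1020 to 1212) without a 5' UTR and 1074 nt (1038 to 1113) with one, and coding regions over 3000 nt made 3.43 and 5.04%, against 4.87% of all. The longest were the flippase genes DNF2 at 4839 nt and DNF1 at 4716 nt, HAP1 at 4509 nt, SSM4, a ubiquitin ligase, at 3960 nt and TRS120, of a vesicle tethering complex, at 3870 nt. The shortest were PMP1 and YDR003W-A at 123 nt each, DAD4, of the kinetochore DASH complex, at 219 nt, and VMA9 and NBL1 at 222 nt each. ATG44 and CMC4 tied with these at 222 nt. The 3' UTR had a median of 102.5 nt (95 to 113, n = 208) without a 5' UTR and 107 nt (104 to 110, n = 2674) with one, and it exceeded 200 nt in 13.9 and 13.3%, against 13.3% of all. The longest were IRC21 at 795 nt, TRM5 at 579 nt, GLY1 at 564 nt, IRC7 at 470 nt and RRN5 at 399 nt. The shortest were YLL053C at 1 nt, the transcription factor gene TEA1 at 20 nt, RPL21A at 27 nt, POL30, the replication clamp, at 28 nt and YER152C at 32 nt.

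A missing 3' UTR row was nearly always joined to a missing 5' UTR row. It was found in 113 of 321 mRNAs without a 5' UTR (35.2%, 30.2 to 40.6%) and in 5 of 2679 with one (0.187%, 0.0797 to 0.436%), against 3.93% of all. The 5 were SIP1, SCW4, MLO50, PUS4 and ULA1, with 5' UTRs of 178, 81, 32, 1 and 49 nt. At the other side of the rule, 82 mRNAs had a 5' UTR of fewer than 10 nt, the shortest being 1 nt.

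By chromosome, the share without a 5' UTR ranged between 6.47% (3.82 to 10.75%) on chromosome 14 and 18.9% (12.1 to 28.2%) on chromosome 3, against 10.7% of all mRNAs. On chromosome 3, 17 of 90 lacked a 5' UTR and 7 had neither UTR. These are the lowest and highest of 16 chromosomes, and the interval of chromosome 14 included 10.7%. Within 10 genes of a chromosome end lay 14 of 321 mRNAs without a 5' UTR (4.36%, 2.62 to 7.19%) and 50 of 2678 with one (1.87%, 1.42 to 2.45%), against 2.13% of all. They included PHO11 and the subtelomeric family members COS6, COS8 and COS9.

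A few start codons are annotated elsewhere in R64. The coding length differed from R64 for 5 of 321 mRNAs without a 5' UTR (1.56%, 0.667 to 3.59%) and 15 of 2678 with one (0.560%, 0.340 to 0.922%), against 0.667% of all. Placed by the 6 nearest listed genes in each build separately, the start of GRX3 lay 105 nt further downstream in R64 with the same stop, and that of HPA3 54 nt further. The start of RSM23 lay 113 nt further, with its stop moved by 1 nt against the neighbours. Among mRNAs with a 5' UTR, the start lay further downstream in PTH2 by 18 nt and in EFM4 by 84 nt, and their listed 5' UTRs were 6 and 1 nt. The 5 mRNAs whose R64 start lay at least 10 nt downstream, with the stop within 1 nt, had no 5' UTR or at most 6 nt of one. In the other direction, the R64 start of ASI3, which had neither UTR, lay 22 nt upstream, with its stop moved by 1 nt. That of RDH54, with a 5' UTR of 75 nt, lay 100 nt upstream, with its stop moved by 2 nt. This comparison and its limits were chosen after the values were seen.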

How the data were processed

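The values are genome coordinates. Per the labels and design text, the authors deposited an annotation of gene, chromosome, start, end and feature, counted from 1. No source used here names the genome build, the strain or the way UTR ends were set. Samples were grouped by nuclease (4 RNase V1, 3 nuclease S1), but no value per sample was analysed, so no test over samples was possible and depth is unknown. Lengths are end minus start plus 1, and introns are gaps of at least 10 nt between exons. R64 supplied names, neighbours and sequence at its own coordinates, and builds were not mixed: 2999 of 3000 mRNAs matched by name, and 1, YOL013W-A, did not. Proteins translated from R64 were compared with BLAST+ 2.17.0 (e-value limit 1e-10, 80% coverage of both). Codon weights came from 138 cytosolic ribosomal protein genes. Groups were described by counts, medians, 95% Wilson intervals for shares and order-statistic intervals for medians, computed with NumPy 2.4.6, SciPy 1.17.1 and Biopython 1.88, plotted with Matplotlib 3.10.9, and tested on simulated data. Intervals cover counting error over genes.

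The mRNAs and the 25 gene lists were chosen with earlier results of these data known. Genes were named by rule: the 5 extremes of coding, 3' UTR and intron length and of gap, the 5 closest paralogue pairs of each kind, up to 4 per list by coding length, and up to 5 divergent pairs. Tandem overlaps, start contexts, first exons, mating and marker genes, highest codon indices, genes near chromosome ends and moved starts were named after their values were seen. Alternatives varied the UTR minimum, intron and exon limits, paralogue identity, neighbour definition, start bases and distance from chromosome ends.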

Additional observations from a re-analysis of the deposited data

How the results depend on the processing

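Of 39 alternatives, 31 left the value of mRNAs without a 5' UTR within its own interval and 8 moved it outside, whatever the difference from mRNAs with one did. Counting 5' UTRs under 10 nt as none made the share without a 5' UTR 13.4% and the share of these without a 3' UTR 28.3%. It left the 24 list shares within their wide intervals but moved several by over 1.5 times: mitochondrial ribosomal proteins to 23.7%, cytosolic ones to 5.07%, the mating pathway to 26.7%, RNA polymerase subunits to 6.67%, and 3 lists from 0, histones to 10%, aminoacyl-tRNA synthetases to 4.76% and actin, tubulin and septins to 3.85%. The intervals of mitochondrial ribosomal proteins (14.7 to 36.0%) and of reading frames without a symbol (21.7%, 15.7 to 29.1%) then lay above the 13.4% of all mRNAs. For the 24 lists, counting short 5' UTRs as none was not planned. A first exon limit of 10 nt gave 0.312% without a 5' UTR and 1.75% with one. The median gap was 811 nt without a 5' UTR and 1028 nt with one to the nearest listed gene, 237.5 and 373 nt to the neighbour's transcript end, and 446 and 549 nt for divergent neighbours alone. A or G at -3 was found in 73.2 and 85.5%. Within 20 genes of a chromosome end lay 9.35 and 6.76%. Apart from the changed definitions themselves, the cause was not tested. Without ribosomal protein genes, the median coding length was 1113 nt without a 5' UTR and 1125 nt with one, so its small difference changed sign. The divergent and tandem restrictions and the omission of mRNAs with neither UTR were not planned and were added after the data were seen. No paired analysis was possible because the annotation holds no measurement of a single sample, and leaving out a replicate was not run for the same reason. The annotation carries no depth and no error for any transcript end, so the precision of single rows is unknown.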
